A study of Mus musculus with 7 samples.

Results

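To examine how the NRF2-driven antioxidant enzymes outside glutathione metabolism behave in Trpm6-deficient liver, 10 genes were chosen by name: the quinone reductase genes Nqo1 and Nqo2, the carbonyl reductase gene Cbr3, the epoxide hydrolase gene Ephx1, the haem oxygenase gene Hmox1, the thioredoxin system genes Txnrd1 and Srxn1, the cofactor supply genes G6pdx and Ugdh, and Nfe2l2, which encodes NRF2 itself. Of these 10 genes, 9 were measured, each by 1 probe set, among 19938 genes with a probe set of their own. G6pdx was matched to no probe set by symbol or gene identifier and was not analysed here. The arrays compared 3 Trpm6-deficient males (Trpm6 Δ17/Δ17;Sox2-Cre), aged 13, 12 and 13 weeks for Trpm6-deficient 1, 2 and 3, with 4 control littermate males (Trpm6 fl/+), aged 12, 12, 13 and 13 weeks for controls 1 to 4, all on the C57BL/6 background and without a treatment. The Sox2 promoter drives Cre in the epiblast, so exon 17 of Trpm6 was lost in all tissues of the embryo proper and not in hepatocytes alone, and effects of the Cre transgene cannot be told apart from those of the deletion, since the control genotype lists no Cre. RNA of a left lobe fragment of each liver was hybridized to 1 Affymetrix Mouse Gene 1.0 ST array. All values are log2 expression after RMA, a method that corrects background, normalizes arrays and summarizes probes, so a difference of 1 is a doubling of signal.

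NRF2 is a transcription factor that cells hold at a low level. KEAP1, an adaptor of the CUL3 ubiquitin ligase, marks it for degradation, and electrophiles or oxidants modify KEAP1 so that NRF2 accumulates, pairs with a small MAF protein and binds antioxidant response elements. BACH1 is a repressor that occupies such elements, and that of Hmox1 in particular, until haem displaces it. In liver the pathway is known for inducing enzymes that reduce quinones, regenerate thioredoxin and peroxiredoxin, break down haem and supply NADPH and UDP-glucuronate. Several of these genes also answer to other regulators: Nqo1 to the aryl hydrocarbon receptor (AHR), and Ephx1 to the constitutive androstane receptor (CAR).

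The promoters of Nqo1 and Srxn1, the members with the smallest p-values below, and of Ugdh, which has the element in its window but showed no such difference, are shown to set sequence beside expression. Each is the 250 bases before the annotated gene start, 5′ to 3′ on the strand of the gene, from RefSeq (GRCm38.p6): Nqo1 at chr8:107403206-107403455 (minus strand), Srxn1 at chr2:152105274-152105523 (plus strand) and Ugdh at chr5:65435843-65436092 (minus strand). Capitals mark matches on either strand to the core of the antioxidant response element, TGACNNNGC, or to the AP-1 element TGACTCA, with which it can overlap.
Nqo1: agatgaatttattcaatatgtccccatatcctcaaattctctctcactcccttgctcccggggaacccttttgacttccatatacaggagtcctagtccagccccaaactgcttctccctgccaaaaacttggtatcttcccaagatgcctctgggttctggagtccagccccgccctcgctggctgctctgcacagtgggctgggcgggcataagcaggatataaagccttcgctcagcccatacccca
Srxn1: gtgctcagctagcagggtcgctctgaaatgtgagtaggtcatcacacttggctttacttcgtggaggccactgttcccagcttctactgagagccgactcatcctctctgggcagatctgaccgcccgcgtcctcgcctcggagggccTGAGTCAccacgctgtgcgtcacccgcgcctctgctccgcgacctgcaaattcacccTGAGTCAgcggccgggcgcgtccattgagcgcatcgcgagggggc
Ugdh: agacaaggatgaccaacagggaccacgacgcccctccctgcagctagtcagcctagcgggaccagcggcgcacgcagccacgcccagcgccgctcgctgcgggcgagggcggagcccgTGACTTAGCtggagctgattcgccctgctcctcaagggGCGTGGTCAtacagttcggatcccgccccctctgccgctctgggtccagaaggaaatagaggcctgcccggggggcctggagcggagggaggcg
The Nqo1 window held neither motif, and sequence beyond these 250 bases was not searched. The Srxn1 window held TGACTCA at 2 places (at positions -102 and -45 from the gene start, reading TGAGTCA on the strand of the gene), and no TGACNNNGC. The Ugdh window held TGACNNNGC at 2 places, at positions -132 and -94. Of the 10 genes, 9 matched an entry of this table, with 12 windows in all since Txnrd1 and Nqo2 have several starts. TGACNNNGC was in 4 of the 12 windows (Txnrd1, at the second of its starts, G6pdx, Ugdh and Nfe2l2) against 10.2% of all windows of this length, and TGACTCA in 1 of 12 against 4.46%. Hmox1 matched no entry and was not searched. A match describes letters and does not show that a factor binds there. A window without a match does not show that a gene lacks the element, which may lie outside the window.

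Trpm6 itself, the deleted gene, had values of 5.50, 5.37 and 5.50 in Trpm6-deficient livers and 5.53, 5.51, 5.50 and 5.50 in control livers (log2 change -0.05, standard error 0.05, adjusted p = 0.882 from limma). These values lie below the median of each array (6.43 to 6.48), and a probe set outside the deleted exon would not read the deletion. The summed signal of 8 hepatocyte markers, Alb and Apoa1 among them, spanned 16.72 to 16.79 in Trpm6-deficient and 16.65 to 16.80 in control livers on the log2 scale. This sum is weighted to the brightest markers. Of the 8, only Asgr1 had an unadjusted p up to 0.05 (log2 change 0.225, adjusted p = 0.709 from limma). Ttr was higher without overlap, at 14.13 to 14.14 in Trpm6-deficient and 13.90 to 14.08 in control livers (adjusted p = 0.805). Control 1 stood apart among the controls in its non-parenchymal markers. It was the lowest control for 7 of 8 Kupffer cell markers and for 7 of 7 endothelial markers, with a summed endothelial signal of 12.15 against 13.12 to 13.31 in the other controls. It was also the highest or the lowest control for each of the 9 measured members. The log2 changes of the members are therefore also given without it.

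No member of the 9 reached an adjusted p of 0.1 in limma, a threshold that 0.129% of all 35556 probe sets passed (0.0759% higher and 0.0534% lower in Trpm6-deficient liver). With an unadjusted p up to 0.05, 4 members were higher in Trpm6-deficient liver, Nqo1, Hmox1, Srxn1 and Nqo2, and none was lower, while 6.87% of all probe sets were past this level, 3.85% higher and 3.03% lower. The same 4 members had all Trpm6-deficient livers above all control livers, as did 2.94% of all probe sets, and no member had them all below, as did 2.38% (5.33% without overlap in either direction). The remaining 5 (Cbr3, Ephx1, Txnrd1, Ugdh and Nfe2l2) overlapped between the groups. The median log2 change of the 9 members was 0.11, against 0.00 over all probe sets. Without control 1 the same 4 members stayed with an unadjusted p up to 0.05 and the median was 0.10. The count was 2, Nqo1 and Srxn1, without Trpm6-deficient 2 and also without Trpm6-deficient 3. The log2 change of Hmox1 was then 0.43 without Trpm6-deficient 2 and 0.57 without Trpm6-deficient 3, against 0.56 with all livers. That of Nqo2 was 0.29 and 0.34 in these fits, against 0.34 with all livers, and Nqo2 also missed this level without Trpm6-deficient 1 (0.38) and without control 3 (0.31). The members were chosen with earlier results of these data known, so these counts are a description.

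**Figure D1:**
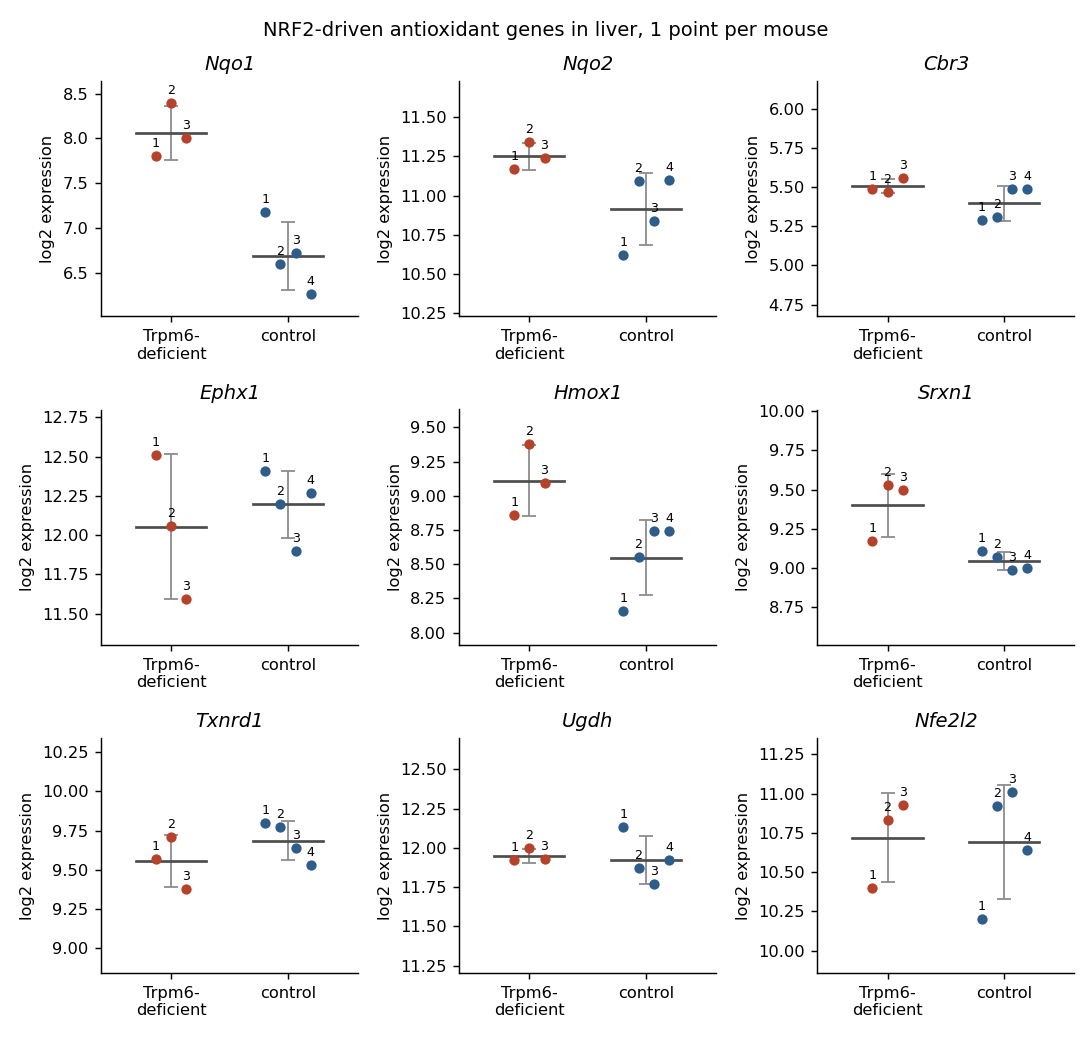
Log2 expression of the 9 measured members, with 1 numbered point per mouse (Trpm6-deficient, n = 3, left; control, n = 4, right), a line at each group mean and error bars of 1 SD. No overlap is seen for Nqo1, Nqo2, Hmox1 and Srxn1 while the other 5 overlap, and control 1 is the lowest liver for Hmox1, at 8.16, and for Nfe2l2, at 10.20.

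Nqo1 encodes the cytosolic quinone reductase that reduces quinones in a single step and so bypasses the semiquinone radical; it is the gene most often used to read NRF2 activity. Its log2 values were 7.80, 8.39 and 8.0 in Trpm6-deficient livers, against 7.18, 6.60, 6.72 and 6.26 in control livers. Trpm6-deficient 2 was the highest and control 4 the lowest, and the gap between the groups was set by Trpm6-deficient 1 and control 1. The mean was 8.06 ± 0.30 (SD, n = 3) in Trpm6-deficient and 6.69 ± 0.38 (SD, n = 4) in control livers. The log2 change was 1.37 (standard error 0.24, 95% confidence interval 0.80 to 1.95), a 2.59-fold difference. By p-value it ranked 142 among all probe sets, and it did not pass the adjusted test (adjusted p = 0.232 from limma). Without control 1 the log2 change was 1.54 (adjusted p = 0.227). Its level lay between the 46.3 and 75.4 percentile of the arrays.

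Nqo2 encodes a related reductase that uses dihydronicotinamide riboside in place of NADPH. Its log2 values were 11.17, 11.34 and 11.24 in Trpm6-deficient livers, against 10.62, 11.09, 10.84 and 11.10 in control livers. The lowest Trpm6-deficient liver lay only 0.07 above the highest control, and control 1 was the lowest liver. For Nqo2 this gave a log2 change of 0.34 (standard error 0.13, 95% confidence interval 0.02 to 0.65, adjusted p = 0.691 from limma), a 1.26-fold difference, and 0.24 without control 1. Cbr3, a carbonyl reductase that acts on quinones and aldehydes, read 5.49, 5.47 and 5.56 in Trpm6-deficient livers, against 5.29, 5.31, 5.49 and 5.49 in control livers. The groups overlapped, with Trpm6-deficient 3 alone above every control. Its log2 change was 0.11 (95% confidence interval -0.06 to 0.28, adjusted p = 0.844) and 0.077 without control 1, and its level, between the 28.8 and 32.5 percentile of the arrays, was not checked against background.

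Ephx1 encodes microsomal epoxide hydrolase, which opens reactive epoxides made by cytochromes P450. Its log2 values were 12.51, 12.06 and 11.59 in Trpm6-deficient livers, against 12.41, 12.20, 11.90 and 12.27 in control livers. Trpm6-deficient 1 was the highest and Trpm6-deficient 3 the lowest of all 7 livers, so the spread within the Trpm6-deficient group (SD 0.46) exceeded the difference between the groups. Ephx1 had a log2 change of -0.14 (standard error 0.23, 95% confidence interval -0.69 to 0.41, adjusted p = 0.934 from limma), which was -0.07 without control 1 and 0.09 without Trpm6-deficient 3.

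Hmox1 encodes the inducible haem oxygenase, which opens haem to biliverdin, iron and carbon monoxide. It read 8.86, 9.38 and 9.09 in Trpm6-deficient livers, against 8.16, 8.55, 8.74 and 8.74 in control livers. All Trpm6-deficient livers were above all controls, by 0.12 at the closest, and control 1 was the lowest. Hmox1 differed by a log2 change of 0.56 (standard error 0.18, 95% confidence interval 0.12 to 1.01, adjusted p = 0.641 from limma), a 1.48-fold difference. Without control 1 it was 0.43 (adjusted p = 0.753).

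Hmox1 is also high in Kupffer cells, the liver macrophages that take up aged red cells, and in whole tissue fewer cells of a type and less RNA per cell cannot be told apart. Of 8 Kupffer cell markers none passed at either threshold. Their summed signal was 12.15, 12.24 and 12.31 in Trpm6-deficient livers, against 11.86, 12.83, 12.84 and 12.63 in control livers, on the log2 scale. Except for control 1 this signal was lower in Trpm6-deficient livers, where Hmox1 was higher. Control 1 had both the lowest Kupffer cell signal and the lowest Hmox1. The pattern was not particular to Kupffer cells. The summed signal of 7 endothelial markers was 12.41, 13.03 and 12.65 in Trpm6-deficient livers, against 12.15, 13.31, 13.12 and 13.13 in control livers. Adgre1 and Vsig4, both macrophage surface genes, had values of 8.06 and 9.61 in control 1, and 8.83 to 9.33 and 11.08 to 11.17 in the other controls. Of 5 erythroid markers, Alas2, the haem synthesis gene of red cell precursors, was at 9.95, 8.85 and 9.19 in Trpm6-deficient and 10.72, 11.17, 11.07 and 10.98 in control livers (adjusted p = 0.192 from limma). Alas2 carried the summed erythroid signal, which was 9.68 to 10.39 in Trpm6-deficient and 10.99 to 11.38 in control livers. Over the other 4 markers (Slc4a1, Epb42, Klf1 and Hemgn) the sum was 8.48 to 8.53 in Trpm6-deficient and 8.45 to 8.66 in control livers, and none of them had an unadjusted p up to 0.05. Among 7 neutrophil and monocyte markers only Lcn2, which hepatocytes also make in the acute phase response, had an unadjusted p up to 0.05, with 9.32, 10.71 and 10.88 in Trpm6-deficient and 8.59, 7.95, 8.90 and 8.06 in control livers (adjusted p = 0.389), while S100a8 and S100a9 stayed between 5.13 and 5.95 in all livers. Lcn2 carried the summed signal of these 7, which was 9.86 to 11.09 in Trpm6-deficient and 9.05 to 9.64 in control livers. The others lay between 4.32 and 6.55 in all livers. Of 7 stellate cell markers 3 (Acta2, Des and Reln) were higher with an unadjusted p up to 0.05. The others, Lrat, Col1a1, Col3a1 and Pdgfrb, were not, with log2 changes of -0.21, -0.03, -0.02 and 0.00. The summed signal of the list was 11.51 to 11.76 in Trpm6-deficient and 11.25 to 11.60 in control livers. Of 7 lymphocyte markers Cd4 was lower at this level, at 6.19, 6.10 and 6.15 in Trpm6-deficient and 6.57, 6.53, 6.76 and 7.05 in control livers (adjusted p = 0.388), with a summed signal of 8.70 to 8.83 in Trpm6-deficient and 8.73 to 9.14 in control livers. Of 5 cholangiocyte markers Krt19 was higher, with a log2 change of 0.33 (adjusted p = 0.672), and the sum was 9.34 to 9.59 in Trpm6-deficient and 9.26 to 9.52 in control livers. The part of these cells in the values of Hmox1 and of the other members was not tested.

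**Figure D2:**
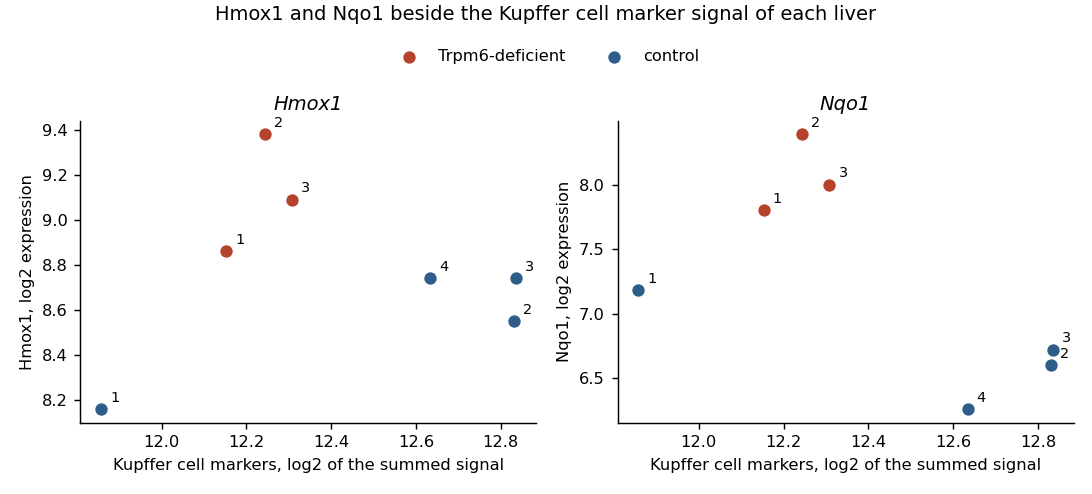
Log2 expression of Hmox1 (left) and Nqo1 (right) against the log2 of the summed signal of 8 Kupffer cell markers, with 1 numbered point per mouse (Trpm6-deficient, n = 3; control, n = 4). The Trpm6-deficient livers lie between 12.15 and 12.31 on the marker axis and above all controls on both expression axes, and control 1 is at the left end, at 11.86.

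Srxn1 encodes sulfiredoxin, which restores peroxiredoxins that peroxide has overoxidized, and Txnrd1 encodes the cytosolic thioredoxin reductase. Srxn1 read 9.17, 9.53 and 9.50 in Trpm6-deficient livers, against 9.11, 9.07, 8.99 and 9.0 in control livers. The controls lay within 0.12 of one another and Trpm6-deficient 1 was only 0.06 above them, while Trpm6-deficient 2 and 3 lay further up. For Srxn1 the log2 change was 0.36 (standard error 0.10, 95% confidence interval 0.12 to 0.59, adjusted p = 0.522 from limma), a 1.28-fold difference, and 0.38 without control 1. Without Trpm6-deficient 1 it was 0.47 (adjusted p = 0.119), which was the lowest adjusted p of any member under the alternatives tried. Txnrd1 read 9.57, 9.71 and 9.38 in Trpm6-deficient livers, against 9.80, 9.77, 9.64 and 9.53 in control livers. The groups overlapped, and only Trpm6-deficient 2 lay above the control mean. The log2 change of Txnrd1 was -0.13 (standard error 0.10, 95% confidence interval -0.38 to 0.12, adjusted p = 0.862), and -0.093 without control 1, so with all livers an increase as large as the point estimate for Srxn1 lies outside the interval.

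Ugdh encodes UDP-glucose dehydrogenase, the source of UDP-glucuronate for glucuronidation. It read 11.92, 12.00 and 11.93 in Trpm6-deficient livers, against 12.13, 11.87, 11.77 and 11.92 in control livers, so that the Trpm6-deficient values lay within the range of the controls. The log2 change was 0.03 (standard error 0.09, 95% confidence interval -0.19 to 0.24, adjusted p = 0.973 from limma) and 0.097 without control 1. Nfe2l2, which encodes NRF2, read 10.40, 10.83 and 10.93 in Trpm6-deficient livers, against 10.20, 10.92, 11.01 and 10.64 in control livers. No Trpm6-deficient liver was above the highest control, and control 1 and Trpm6-deficient 1 were the lowest of their groups. The log2 change was 0.03 (standard error 0.23, 95% confidence interval -0.52 to 0.57, adjusted p = 0.993) and -0.14 without control 1. NRF2 is controlled mainly through its protein, which these arrays do not measure.

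**Figure D3:**
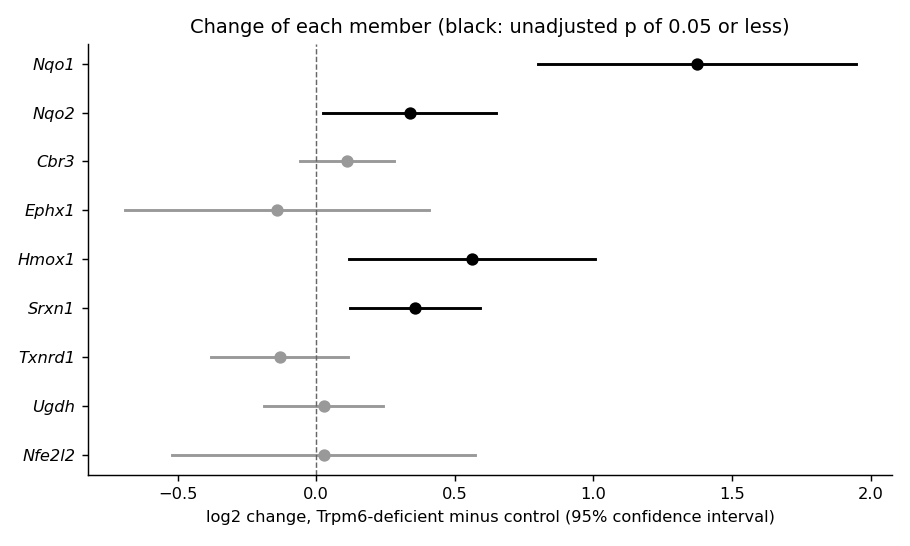
Log2 change of each member, Trpm6-deficient minus control, from limma with its 95% confidence interval (Trpm6-deficient, n = 3; control, n = 4), in black with an unadjusted p up to 0.05. The interval of Nqo1 runs from 0.80 to 1.95 and those of Cbr3, Ephx1, Txnrd1, Ugdh and Nfe2l2 include 0.

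The 4 members that were higher shared their order among the Trpm6-deficient livers: Trpm6-deficient 2 was the highest and Trpm6-deficient 1 the lowest for each of them. This order was not particular to the members. Of the related genes described below, Cbr1 (10.60, 10.82 and 10.63) and Gsta4 (10.91, 11.39 and 11.32) also had it. Mgst3 (9.35, 9.16 and 9.52) and Abcc3 (11.87, 11.64 and 11.22) did not. Trpm6-deficient 2 was 12 weeks old and the other Trpm6-deficient livers 13. Within each age the differences of all 4 members were above 0, as any subset of livers must give where the groups do not overlap. Hmox1 differed by 1.02 at 12 weeks (1 Trpm6-deficient and 2 control livers) and by 0.24 at 13 weeks (2 and 2), and Nqo1 by 1.50 and 1.41. Nqo2 differed by 0.48 and 0.24 and Srxn1 by 0.44 and 0.34 at these ages. The difference between the ages was not tested, since the 12-week comparison holds 1 Trpm6-deficient liver. With age as a covariate, 3 of the 4 stayed with an unadjusted p up to 0.05, and Nqo2 did not, with a log2 change of 0.34 in both fits (unadjusted p = 0.0619 from limma with age and 0.0383 without).

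The 5 genes with a profile over the 7 arrays most like that of Nqo1, by root mean square difference of log2 values after the mean was taken from each, were Abcb1a (0.24), Fmo2 (0.26), Acot4 (0.27), Vldlr (0.27) and Mgst3 (0.29). Vldlr (adjusted p = 0.0903 from limma) and Mgst3 (adjusted p = 0.0400) rose by the adjusted test. Abcb1a encodes a drug efflux pump, Fmo2 a flavin-containing monooxygenase, Acot4 a peroxisomal thioesterase, Vldlr a lipoprotein receptor and Mgst3 a microsomal glutathione transferase. Abcb1a read 7.26, 7.84 and 8.03 in Trpm6-deficient livers, against 6.77, 6.36, 6.50 and 6.35 in control livers. Like Nqo1, to which it was matched on these values, it had the highest control in control 1 and the lowest Trpm6-deficient liver in Trpm6-deficient 1. Abcb1a was highest in Trpm6-deficient 3, and Nqo1 in Trpm6-deficient 2. Of the other members, Srxn1 was the closest to Nqo1 (0.56), with Hmox1 nearly as close (0.58), and Ephx1 the farthest (0.86). The profiles were not scaled, so this measure also reflects the size of the change. Ugdh, with a log2 change of 0.03, lay at 0.71.

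Among 12 measured regulators of the pathway none passed the adjusted test, and with an unadjusted p up to 0.05, 2 were lower and none higher (median log2 change -0.02 with Nfe2l2 included). Bach1, the repressor of Hmox1, had values of 8.94, 9.04 and 8.92 in Trpm6-deficient livers, against 9.18, 9.20, 9.26 and 9.36 in control livers. All Trpm6-deficient livers were below all controls (log2 change -0.28, standard error 0.06, 95% confidence interval -0.43 to -0.13, adjusted p = 0.384 from limma). Cul3, the ligase scaffold on which KEAP1 acts, had values of 10.62, 10.77 and 10.69 in Trpm6-deficient livers, against 10.90, 10.85, 10.81 and 10.78 in control livers, and these groups lay 0.01 apart at the closest. The log2 change of Cul3 was -0.14 (adjusted p = 0.699). Keap1 overlapped between the groups, with a log2 change of 0.12 (adjusted p = 0.820).

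Of 16 measured NRF2 targets outside glutathione that are not members, 2 were higher and none lower with an unadjusted p up to 0.05, and none passed the adjusted test (median 0.06). Cbr1, the broad carbonyl reductase and relative of Cbr3, read 10.60, 10.82 and 10.63 in Trpm6-deficient livers, against 9.93, 9.93, 10.16 and 10.06 in control livers. The groups were apart by 0.44 (log2 change 0.66, standard error 0.09, 95% confidence interval 0.46 to 0.87, adjusted p = 0.119 from limma). Abcc3, an exporter of glucuronides, had a log2 change of 0.47 (adjusted p = 0.691), with Trpm6-deficient 3 at 11.22 among the controls, which spanned 10.92 to 11.35. Fth1 and Ftl1, the ferritin chains that take up iron released from haem, had log2 changes of 0.04 (adjusted p = 0.905) and 0.08 (adjusted p = 0.847). Further probe sets, annotated to Ftl1 and to microRNA genes and so assigned to none, had log2 changes of 0.07 to 0.13. The largest change was from 12.49, 12.46, 12.39 and 12.43 in control to 12.64, 12.59 and 12.50 in Trpm6-deficient livers (unadjusted p = 0.0404, adjusted p = 0.696 from limma).

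In the glutathione arm of the pathway, set beside the members for comparison, 1 of 13 measured genes rose by the adjusted test. This was Mgst3, at 9.35, 9.16 and 9.52 in Trpm6-deficient livers, against 8.02, 7.68, 7.70 and 7.59 in control livers (log2 change 1.6, standard error 0.13, adjusted p = 0.0400 from limma). With an unadjusted p up to 0.05, 4 were higher and 1 lower, with a median log2 change of 0.21. Gsta4, a transferase that conjugates products of lipid peroxidation, had a log2 change of 0.68 (adjusted p = 0.429 from limma), and Gstp1, another transferase, one of -0.92 (adjusted p = 0.129) by the probe set annotated to it alone. Another pair of probe sets, annotated to both Gstp1 and its near-identical neighbour Gstp2 and so assigned to neither, fell by the adjusted test, with a log2 change of -1.29 each (adjusted p = 0.0428 and 0.0487). Gsta1 and Gsta2 share their probe sets with each other and with further gene models and were not among the 13, and these 4 shared probe sets had log2 changes of 1.06 to 1.14 (adjusted p = 0.428 to 0.437). Gclc and Gclm, the subunits of the enzyme that limits glutathione synthesis and classical NRF2 targets, had log2 changes of 0.21 (adjusted p = 0.929) and -0.10 (adjusted p = 0.856). The difference between this list and the members was not tested.

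**Figure D4:**
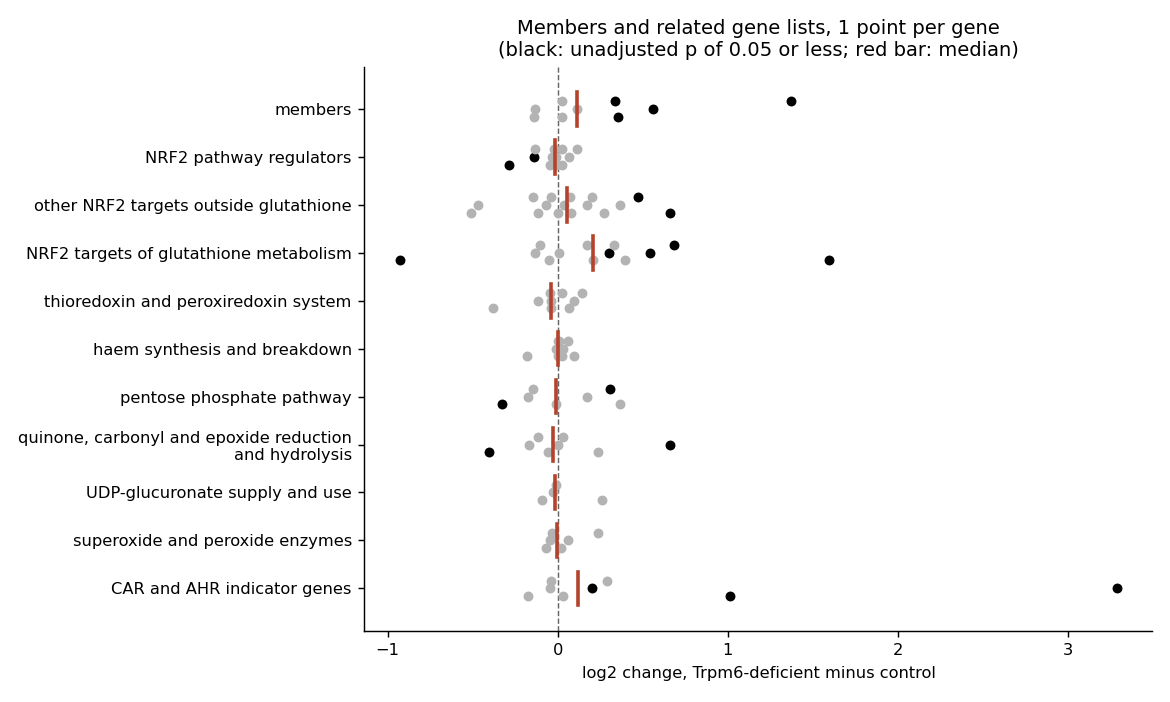
Log2 change, Trpm6-deficient minus control (n = 3 and 4), of the members and of 10 related gene lists, with 1 point per gene (black with an unadjusted p up to 0.05) and the median of each list as a red bar; some genes are in more than 1 list. The medians lie between -0.04 for the thioredoxin and peroxiredoxin system and 0.21 for the glutathione targets, and the single point beyond 3 is Cyp2b10.

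Of 9 genes of the thioredoxin and peroxiredoxin system other than Srxn1 and Txnrd1, and 10 of haem synthesis and breakdown other than Hmox1 and the erythroid Alas2, both given above, none was past an unadjusted p of 0.05 in either direction, with log2 changes from -0.38 to 0.14 and from -0.18 to 0.10, and neither was any of 6 superoxide and peroxide enzymes (-0.07 to 0.24) or of 4 genes of UDP-glucuronate supply and use other than Ugdh (-0.09 to 0.26). A probe set shared by Ugt1a1, Ugt1a6a and other Ugt1a transferases, and so assigned to none of them, had a log2 change of 0.36 with all Trpm6-deficient livers above all controls (adjusted p = 0.328 from limma). Of 7 genes of the pentose phosphate pathway, to which the unmeasured G6pdx belongs, Pgls, the lactonase step, had a log2 change of 0.31 (adjusted p = 0.699 from limma) and Rpe, the epimerase step, one of -0.33 (adjusted p = 0.514), and 5 were not past the unadjusted level. Among 8 genes of quinone, carbonyl and epoxide metabolism other than the members, Cbr1 was higher, as given above, and Ephx2, the soluble epoxide hydrolase, had a log2 change of -0.40 (adjusted p = 0.688).

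Cyp2b10, the standard indicator of CAR, read 9.70, 10.04 and 7.94 in Trpm6-deficient livers, against 5.66, 5.69, 6.12 and 6.29 in control livers, a difference of 3.29 on the log2 scale (adjusted p = 0.180 from limma). Cyp2b10 was highest in Trpm6-deficient 2, as were Nqo1 and the other 3 higher members, and lowest in Trpm6-deficient 3. Those members were lowest in Trpm6-deficient 1. Ephx1 was lowest in Trpm6-deficient 3 but highest in Trpm6-deficient 1. Cyp2c55, another CAR-responsive gene, had a log2 change of 1.02 (adjusted p = 0.672), with Trpm6-deficient 2 highest at 8.36 and Trpm6-deficient 3 lowest at 7.17. Cyp1a1, the standard indicator of AHR, had a log2 change of 0.03 (adjusted p = 0.982) and Cyp1a2 one of -0.17 (adjusted p = 0.859). Tiparp, another AHR target, was higher with an unadjusted p up to 0.05, at 7.99, 7.91 and 7.80 in Trpm6-deficient livers, against 7.80, 7.67, 7.77 and 7.54 in control livers (log2 change 0.20, adjusted p = 0.709). Of the 8 indicator genes of both receptors 3 were higher at this level (Cyp2b10, Cyp2c55 and Tiparp), none was lower and none passed the adjusted test. The part of CAR or AHR in the values of the members was not tested.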

How the data were processed

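Liver RNA of 3 Trpm6-deficient and 4 control mice was measured on Affymetrix Mouse Gene 1.0 ST arrays, 1 per mouse. The authors performed background correction, normalization and summarization in Affymetrix Expression Console 1.4.0 (RMA, per the submitters' processing notes) and deposited log2 values of 35556 probe sets. RMA compresses changes of dim transcripts. Symbols were taken from GEO's platform annotation: 21789 probe sets had a single symbol, 1621 several and 12146 none. No genome build was given in the sources used here, and promoter sequences came from RefSeq (GRCm38.p6). For each gene the brightest probe set was used. Log2 values were fitted as deposited with limma 3.58.1 in R 4.3.3 (lmFit and eBayes, no covariate), and p-values were adjusted over all probe sets by the method of Benjamini and Hochberg, with a threshold of 0.1, as in the methods of the study. The fit was tested on simulated data. The number of arrays limits the precision. The members and gene lists were chosen with earlier results of these data known. The text names the members, the 5 genes with a profile most like that of the member with the smallest p, and from each list the genes past the adjusted threshold and the 2 with the smallest p-values in each direction with an unadjusted p up to 0.05. Probe sets annotated to several genes were given no gene. Lrat, Col1a1, Col3a1 and Pdgfrb were named as the rest of the stellate cell list. Asgr1 and Ttr were named from the hepatocyte list for their values. Trpm6, Tiparp, Cd4, Krt19, Slc4a1, Epb42, Klf1, Hemgn, Gsta1, Gsta2, Ugt1a1, Ugt1a6a, Lcn2, Acta2, Des, Reln, Alb, Apoa1, S100a8, S100a9, Fth1, Ftl1, Gclc, Gclm, Keap1, Cyp1a1, Cyp1a2, Alas2, Adgre1 and Vsig4 were named for their roles after their values were seen.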

Additional observations from a re-analysis of the deposited data

How the results depend on the processing

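No member passed an adjusted p of 0.1 under any alternative tried, namely a filter on dim probe sets, median centring, quantile normalization, age as a covariate, the replicate block, a variance trend, array weights, the methods' t-test and leaving out each liver, nor at an adjusted p of 0.05. The count with an unadjusted p up to 0.05 was 4 and stayed at 3 or 4 where no liver was removed. It was 2 to 4 when 1 liver was left out. The median log2 change of 0.11 was 0.09 to 0.19 when 1 liver was left out, with the highest value without Trpm6-deficient 1. Nqo1, Nqo2, Hmox1, Srxn1, Cbr3 and Txnrd1 kept the sign of their change under all 15 alternatives. For Nqo1, Nqo2, Hmox1 and Srxn1 leaving out a liver could not change the sign, since their groups do not overlap. Nfe2l2 changed sign without Trpm6-deficient 2 (-0.03), Trpm6-deficient 3 (-0.08) and control 1 (-0.14), Ugdh without control 3 (-0.023) and Ephx1 without Trpm6-deficient 3 (0.09). When 1 liver was left out Nfe2l2 spanned -0.14 to 0.19, Ugdh -0.023 to 0.097 and Ephx1 -0.37 to 0.09. Nqo1 was past an unadjusted p of 0.05 in 15 of 15 alternatives, Srxn1 in 14, Hmox1 in 13 and Nqo2 in 9. The number of probe sets past the adjusted threshold was 46, and 7 to 69 when 1 liver was left out (69 without Trpm6-deficient 1, 17 and 14 without Trpm6-deficient 2 and 3, 9, 10, 7 and 9 without controls 1 to 4), 70 with the filter, 8 with age as a covariate, 8 by the methods' t-test and 1 with the replicate block.

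The mice are described as littermates, but only a replicate number links a given Trpm6-deficient mouse to a given control. Deviations from the group means correlated by 0.34, 0.26 and 0.09 for numbers 1, 2 and 3. By this correlation the first and second Trpm6-deficient livers were closest to the control of the same number, and the third was closest to control 4. Number 1 joins a Trpm6-deficient mouse of 13 weeks to a control of 12 weeks. The mice of number 2 were both 12 weeks old and those of number 3 both 13. What the numbers stand for was not tested. With the replicate block 3 members had an unadjusted p up to 0.05, and Srxn1 did not (log2 change 0.34 against 0.36). The median log2 change was then 0.14 and that of Nqo1 was 1.23. Control 4 has no partner of its number and so did not inform the group difference in this fit. The log2 changes are those of the fit without control 4. The mean over all probe sets of a gene was not run, because each measured member has 1 probe set.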
